A study of Homo sapiens with 6 samples.

Results

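The BCL2 family sets whether a cell's mitochondria are opened for apoptosis, and 10 of its genes were followed here in human colon carcinoma cells given the microRNA miR-224. They are the survival genes BCL2, BCL2L1 and MCL1, the pore-forming effector BAK1, and the BH3-only genes BID, BAD, BCL2L11, PMAIP1, BIK and BMF. They were taken by name, with every array probe set annotated with that symbol alone, which gave 32 of the 54613 probe sets fitted, and 10 of 19775 genes. The genes were chosen with earlier results of these data known, so their shares beside those of all probe sets are a description. The cells were HCT116, an established colon carcinoma line, transfected either with 50 nM of control oligos or with 50 nM of miR-224 precursors and harvested at 24 h. The series describes 3 pairs from 3 independent experiments, so there are 3 control and 3 miR-224 arrays of total RNA, and arrays with the same number were read as a pair. The miR-224 was supplied from outside the cells, so the comparison is one of excess miR-224. The level it reached in the cells was not analysed here.

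BCL2-family proteins meet at the outer mitochondrial membrane. Survival members such as BCL2, BCL-XL (from BCL2L1) and MCL1 hold the effectors BAK and BAX in check, and BH3-only proteins, named after the short helix they share with the rest of the family, release or directly trigger those effectors. Once the effectors form pores, cytochrome c leaves the mitochondria and caspases are activated. MCL1 and the NOXA protein encoded by PMAIP1 turn over fast, and many members are regulated at the protein level, which an expression array does not read. In total RNA of a whole culture, less RNA per cell and fewer cells that express a gene cannot be told apart.

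The mature miR-224 strands are shown because they are what a precursor can supply to the cell. The labels do not say which strand was loaded. The RefSeq table (GRCh38.p14, minus strand) places the 5p strand at chrX:151958628-151958652 and the 3p strand at chrX:151958584-151958606. Capitals mark the seed, bases 2 to 8, through which a microRNA mainly finds messenger RNAs.
hsa-miR-224-5p: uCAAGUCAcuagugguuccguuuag
hsa-miR-224-3p: aAAAUGGUgcccuagugacuaca
For both strands, 0 other mature microRNAs in the table carry the same seed. Sites for these seeds in the family's messenger RNAs were not analysed here.

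Values are log2 expression values, read as base 2 although the base is not stated, and the number of arrays limits their precision. Over all probe sets the median level was 3.48, and 27 of the 32 family probe sets lay at or above it. All 8 markers of colon carcinoma epithelium lay at or above that median, and their mean was 7.75 to 8.64 in control and 7.85 to 8.57 in miR-224 arrays. Of the markers of other cells, 4 of 5 fibroblast, 2 of 4 endothelial and 1 of 3 leukocyte genes lay at or above it, and the list means over both groups were 4.01 to 4.25, 2.99 to 3.28 and 3.11 to 3.29. Within the fibroblast list COL1A1 stood at 6.05 ± 0.14 (SD, n = 3) in control cells, and within the epithelial list EPCAM stood at 10.51 ± 0.23 and VIL1 at 3.87 ± 0.18. The part of other cells in the results was not tested. Both arrays of experiment 1 stood apart. The control probe set at the 5′ end of the actin transcript averaged 4.28 there against 12.4 in experiments 2 and 3, while the one at the 3′ end averaged 12.5 in both. Within experiment 1 these signals also differed between the control and the miR-224 array, at 4.42 and 4.14 for the actin 5′ end and at 3.80 and 4.39 for the GAPDH 5′ end. Each value from experiment 1 below carries these differences.

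No family probe set passed the test between miR-224 and control cells. With limma, pairs kept as a block and Benjamini-Hochberg adjustment over all 54613 probe sets, 0 of 32 had an adjusted p under 0.05, against 0% of all probe sets, and their adjusted p ran from 0.258 to 0.998. At an unadjusted p under 0.05 there were 7 of the 32 (21.9%), 5 lower and 2 higher in miR-224 cells, against 9.8% of all probe sets (5.39% lower, 4.41% higher). These 7 belong to MCL1 (214057_at and 214056_at), BCL2L11 (1558143_a_at, 1555372_at and 208536_s_at), BIK and BMF. Probe sets of the same gene are not independent, and MCL1 and BCL2L11 have 6 and 7 of the 32. Counted by gene, with probe sets averaged, 2 of 10 genes had an unadjusted p under 0.05, against 10.4% of 19775 genes. These were BIK and BMF. With only the brightest probe set per gene fitted, 3 of 10 did, against 11%. Without the pairing the count of probe sets was 0 of 32, against 1.95%. With only probe sets at or above the median level fitted, it was 4 of 27 (14.8%), against 11.7% of all 27307 such probe sets. Without experiment 2 it was 4 of 32, against 6.67%, and without experiment 3 it was 7, against 8.1%. With experiments 2 and 3 alone it was again 7, against 10.6%, but these included BCL2 207004_at and not BCL2L11 208536_s_at, and 0 passed after adjustment, against 0.251%. Standard errors here and below are those of the moderated limma fit with pairs as a block.

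The family had no common direction. Its median log2 difference was 0.02, with 17 probe sets higher and 15 lower, and the median over all probe sets was 0.005, with 48.5% lower. In experiments 1, 2 and 3 the family median was -0.004, 0.07 and -0.04. The sign was the same in all 3 experiments for 16 of the 32 (50.0%), against 31.4% of all probe sets, and 10 of these 16 were lower and 6 higher, against 14.8% and 16.5%. The 3 miR-224 and the 3 control arrays did not overlap for 2 of 32 (6.25%), against 6.66%.

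**Figure D1:**
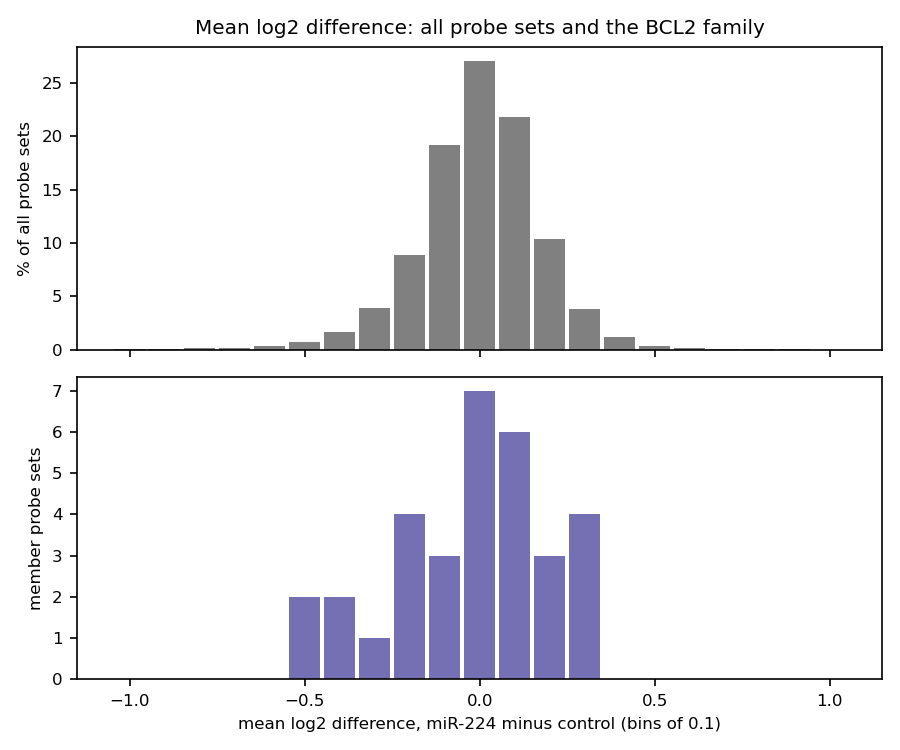
The upper panel plots the percentage of all 54613 probe sets, and the lower panel the number of the 32 family probe sets, by mean log2 difference (miR-224 minus control) in bins of 0.1. Family values run from -0.50 to 0.31 and gather around 0 on both sides.

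At or above the median level, the median size of the difference was 0.147 for the family and 0.116 for all probe sets. Every one of the 32 unadjusted 95% intervals of the blocked fit lay between -1 and 1, as for 99.4% of all probe sets, and their outermost bounds were -0.75 and 0.67. The interval lay within -0.5 and 0.5 for 21 of the 32, against 82.5% of all probe sets. A 2-fold difference in array signal thus lay outside each of these intervals, and for the other 11 probe sets the interval reached past 0.5 in size on a single side. Array signal understates the change of dim transcripts, so these bounds hold for the signal.

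**Figure D2:**
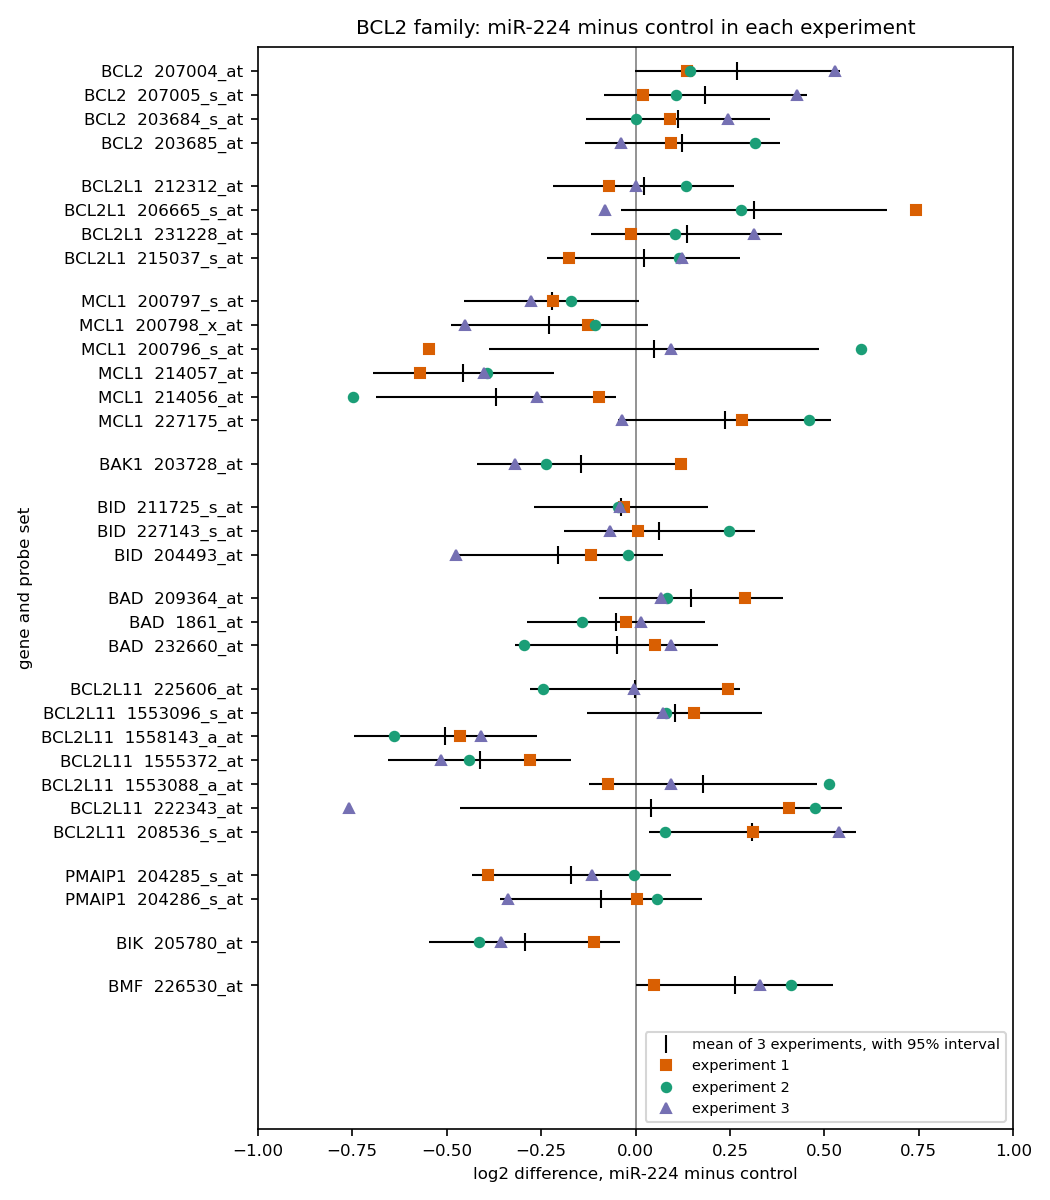
Each row is a family probe set, each symbol its log2 difference (miR-224 minus control) in experiment 1 (square), 2 (circle) or 3 (triangle), and the tick with its line the mean with its unadjusted 95% interval from limma. The intervals of MCL1 214057_at and 214056_at, BCL2L11 1558143_a_at and 1555372_at and BIK lie below 0, those of BCL2L11 208536_s_at and BMF lie above it, and the other 25 include it.

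The 3 survival genes together had 14 probe sets, of which 4 were lower and 10 higher in miR-224 cells, and all 4 lower ones belong to MCL1. MCL1 holds BAK in check, and its protein is short-lived. Its brightest probe set, 200797_s_at, read 9.50, 9.30 and 9.40 in control experiments 1, 2 and 3 and 9.28, 9.13 and 9.12 in the miR-224 cells of the same experiments. All 3 miR-224 arrays lay below all 3 control arrays. The log2 difference was -0.22 ± 0.10 (SE), or 0.858-fold, and -0.22, -0.17 and -0.28 by experiment, with a limma adjusted p of 0.526 (unadjusted 0.0588).

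The next brightest MCL1 probe set, 200798_x_at, stood at -0.13, -0.11 and -0.45 (mean -0.23 ± 0.11 SE), also lower each time, though its groups overlapped. Probe set 214057_at had the smallest p of the gene. It read 4.89, 3.60 and 3.77 in control and 4.31, 3.21 and 3.37 in miR-224 cells. The arrays of experiment 1 were the highest in both groups, so the groups overlapped although every miR-224 array lay below its partner. The difference was -0.46 ± 0.10 (SE; adjusted p = 0.272, unadjusted 0.00216). The dimmer 214056_at stood at -0.10, -0.75 and -0.26 (mean -0.37 ± 0.14 SE).

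The remaining MCL1 probe sets did not share this sign. Probe set 200796_s_at read 3.15, 5.57 and 6.02 in control and 2.61, 6.16 and 6.11 in miR-224 cells. It was far lower in both arrays of experiment 1 than in the other 4, and its difference was -0.55 there against 0.60 and 0.10 in experiments 2 and 3. The dim 227175_at, in the lowest 31.6% of all probe sets, had a mean difference of 0.24 ± 0.12 (SE). Averaged over its 6 probe sets, MCL1 differed by -0.16 ± 0.08 (SE; limma adjusted p = 0.545 over all genes).

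BCL2, the founding survival gene of the family, had a positive mean difference at each of its 4 probe sets. The brightest, 207004_at, read 5.25, 5.25 and 5.06 in control and 5.38, 5.40 and 5.59 in miR-224 cells. All 3 miR-224 arrays lay above all 3 control arrays, by a wider margin in experiment 3. The difference was 0.27 ± 0.12 (SE), or 1.21-fold, with a limma adjusted p of 0.513 (unadjusted 0.0513). Probe set 207005_s_at stood at 0.02, 0.11 and 0.43 (mean 0.19 ± 0.12 SE), again largest in experiment 3. The other two, 203684_s_at and 203685_at, lay below the median of all probe sets, and their mean differences were 0.11 and 0.12.

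BCL2L1, which encodes the survival protein BCL-XL, showed little difference at its brightest probe set. Probe set 212312_at read 8.21, 7.79 and 8.38 in control and 8.14, 7.93 and 8.38 in miR-224 cells. The groups overlapped fully, and the difference was 0.02 ± 0.10 (SE), with a 95% interval of -0.22 to 0.26. Probe set 231228_at stood at -0.01, 0.11 and 0.31.

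The other BCL2L1 probe sets depended strongly on the experiment. Probe set 206665_s_at read 3.17, 6.50 and 7.50 in control and 3.92, 6.78 and 7.42 in miR-224 cells. Its largest difference, 0.74, came from experiment 1, where both arrays were lower by over 2 units than any other array, and with experiments 2 and 3 alone its difference was 0.10 ± 0.14 (SE). Probe set 215037_s_at behaved alike in level, with 2.83 and 2.66 in experiment 1 against 6.37 to 7.45 elsewhere, and its mean difference was 0.02.

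BAK1 is the effector among the 10 genes and has 1 probe set, 203728_at. It read 6.35, 6.61 and 6.26 in control and 6.47, 6.38 and 5.94 in miR-224 cells. The miR-224 array was above its partner in experiment 1 and below it in experiments 2 and 3, and the groups overlapped. The difference was -0.14 ± 0.12 (SE; limma adjusted p = 0.752), and -0.28 ± 0.13 with experiments 2 and 3 alone. BAX, another effector, was chosen after its values were seen. Its brightest probe set, 208478_s_at, differed by 0.69, -0.82 and -0.12 in experiments 1, 2 and 3. The mean level of this probe set was lower in experiment 1 than in the others by 2.09, so these arrays did not settle a sign for it. BAX was read by this probe set alone.

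The 6 BH3-only genes had 17 probe sets, 10 lower and 7 higher in miR-224 cells, with a median difference of -0.04. Of the 5 with an unadjusted p under 0.05, 3 were lower and 2 higher. BIK, a BH3-only protein known from the endoplasmic reticulum, has 1 probe set (205780_at), at the 95.2 percentile of all probe sets by level. It read 7.98, 8.65 and 9.11 in control and 7.87, 8.23 and 8.76 in miR-224 cells. Each miR-224 array lay below its partner, while the spread between experiments made the groups overlap. The difference was -0.29 ± 0.11 (SE), or 0.816-fold, at -0.11, -0.41 and -0.36 by experiment (limma adjusted p = 0.444, unadjusted 0.0276).

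BMF, a BH3-only protein that dynein light chains can tether to the cytoskeleton, stood the other way. Its probe set, 226530_at, read 3.92, 4.04 and 4.27 in control and 3.97, 4.45 and 4.60 in miR-224 cells. Each miR-224 array lay above its partner, by only 0.05 in experiment 1, and the groups overlapped. The difference was 0.26 ± 0.11 (SE), or 1.20-fold (limma adjusted p = 0.507, unadjusted 0.0486). The level of this probe set was at the 61.1 percentile of all probe sets.

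BCL2L11, which encodes the BH3-only protein BIM, had the smallest p of the family, but its 7 probe sets differed in sign. Probe set 1558143_a_at read 5.69, 6.64 and 6.47 in control and 5.22, 5.998 and 6.06 in miR-224 cells. Each miR-224 array lay below its partner by 0.41 to 0.64, and the groups overlapped because experiment 1 was lower in both. The difference was -0.50 ± 0.11 (SE), or 0.705-fold, with a 95% interval of -0.75 to -0.26 (limma adjusted p = 0.258, unadjusted 0.00127).

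A second BCL2L11 probe set, 1555372_at, read 5.71, 4.71 and 4.89 in control and 5.43, 4.27 and 4.37 in miR-224 cells. Here experiment 1 was the highest in both groups, and each miR-224 array again lay below its partner. The difference was -0.41 ± 0.11 (SE; adjusted p = 0.308, unadjusted 0.00426). With experiments 2 and 3 alone the differences were -0.52 ± 0.14 for 1558143_a_at and -0.48 ± 0.13 for 1555372_at.

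The brightest BCL2L11 probe sets gave no such difference. Probe set 225606_at read 6.66, 6.65 and 7.03 in control and 6.91, 6.41 and 7.03 in miR-224 cells. It was higher in experiment 1, lower in experiment 2 and level in experiment 3, with a mean of -0.002 ± 0.12 (SE). Probe set 1553096_s_at was higher by 0.16, 0.08 and 0.07, with a 95% interval of -0.13 to 0.33 that does not overlap the interval of 1558143_a_at. Both intervals are unadjusted, and 1558143_a_at was singled out as the smallest p of the family. The difference between these probe sets was not tested.

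The dim 208536_s_at, at the 39.6 percentile of all probe sets, was higher by 0.31, 0.08 and 0.54 (mean 0.31 ± 0.12 SE, unadjusted p = 0.0315). Probe sets 1553088_a_at and 222343_at differed in sign between experiments, and the latter stood at 0.41, 0.47 and -0.76. The mean over all 7 was -0.04 ± 0.08 (SE; limma adjusted p = 0.901 over all genes). Which BCL2L11 transcripts each probe set reads was not analysed here.

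**Figure D3:**
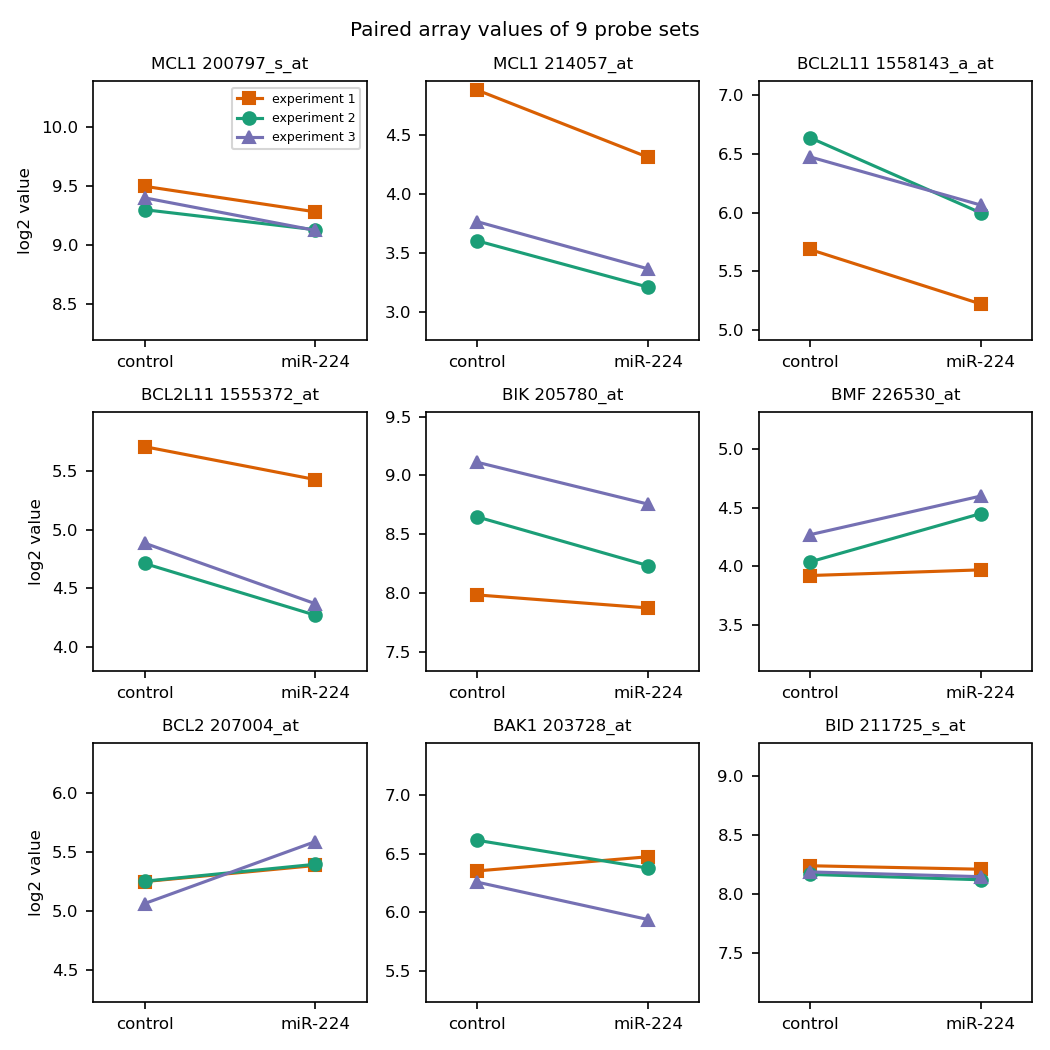
Each panel plots the log2 value of a probe set on the control and the miR-224 array of experiments 1 (square), 2 (circle) and 3 (triangle), with a line joining each pair, and all panels span 2.2 log2 units. Lines run down in every pair for both MCL1 panels, both BCL2L11 panels, BIK and, by under 0.05, BID. They run up for BMF and BCL2, whereas BAK1 goes up in experiment 1 only. MCL1 214057_at and BCL2L11 1558143_a_at and 1555372_at were chosen by the smallest p of their gene. Their like direction in every pair thus follows in part from that choice. The other panels show the brightest probe set of the gene, and BCL2L11 225606_at, the brightest of BCL2L11, is not shown. BCL2L1, PMAIP1 and BAD have no panel. Over the whole family, 16 of the 32 probe sets had the same sign in all 3 experiments.

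PMAIP1 encodes NOXA, a BH3-only protein that binds MCL1 and is a known p53 target. Its probe set 204286_s_at read 8.96, 8.82 and 9.17 in control and 8.96, 8.88 and 8.83 in miR-224 cells. The pairs of experiments 1 and 2 were nearly level and the pair of experiment 3 was lower by -0.34. The mean difference was -0.09 ± 0.12 (SE; limma adjusted p = 0.855). Probe set 204285_s_at read 7.52, 9.42 and 10.15 in control and 7.13, 9.42 and 10.03 in miR-224 cells. Experiment 1 was again low in both groups, and the difference was -0.39 there against -0.004 and -0.11 in experiments 2 and 3.

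BID links death receptors to mitochondria once caspase-8 cleaves it. Its brightest probe set, 211725_s_at, had the smallest spread of the difference between experiments among the 32 (SD 0.0083). It read 8.24, 8.17 and 8.19 in control and 8.21, 8.12 and 8.15 in miR-224 cells. The 6 arrays lay within 0.12 of each other, and the differences were -0.03, -0.05 and -0.04, with a limma interval of -0.27 to 0.19. Probe set 227143_s_at differed by 0.06 ± 0.11 (SE) and 204493_at by -0.20 ± 0.12, the latter mainly from experiment 3 at -0.47.

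BAD binds and neutralises BCL2 and BCL-XL unless phosphorylation hands it to 14-3-3 proteins. Its brightest probe set, 209364_at, read 6.08, 6.60 and 6.36 in control and 6.37, 6.69 and 6.43 in miR-224 cells. Each miR-224 array lay above its partner, most in experiment 1, and the groups overlapped. The difference was 0.15 ± 0.11 (SE; limma adjusted p = 0.708). Probe set 1861_at differed by -0.05 ± 0.10 and 232660_at by -0.05 ± 0.12, so the 3 probe sets gave no common sign.

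Differences between experiments exceeded those between treatments for several family probe sets. In experiment 1 the mean of both arrays was lower than in experiments 2 and 3 by over 1 log2 unit for 5 of the 32 (15.6%), against 4.46% of all probe sets and 8.64% of those at or above the median level. These were BCL2L1 215037_s_at, lower by -4.16, BCL2L1 206665_s_at by -3.50, MCL1 200796_s_at by -3.08, PMAIP1 204285_s_at by -2.43 and BAD 1861_at by -1.77. Each of these genes has another probe set that read nearly the same in all experiments or differed less. The differences were 0.05 for BCL2L1 212312_at, 0.15 for MCL1 200797_s_at, 0.03 for PMAIP1 204286_s_at and -0.29 for BAD 209364_at. Another 2 probe sets, MCL1 214057_at and BCL2L11 1555372_at, were over 1 unit higher in experiment 1, by 1.11 and 1.01, which is 2 of 32 (6.25%) against 5.03% of all probe sets. The 5′ control signals moved with experiment 1, as given above, and their part in these levels was not tested.

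**Figure D4:**
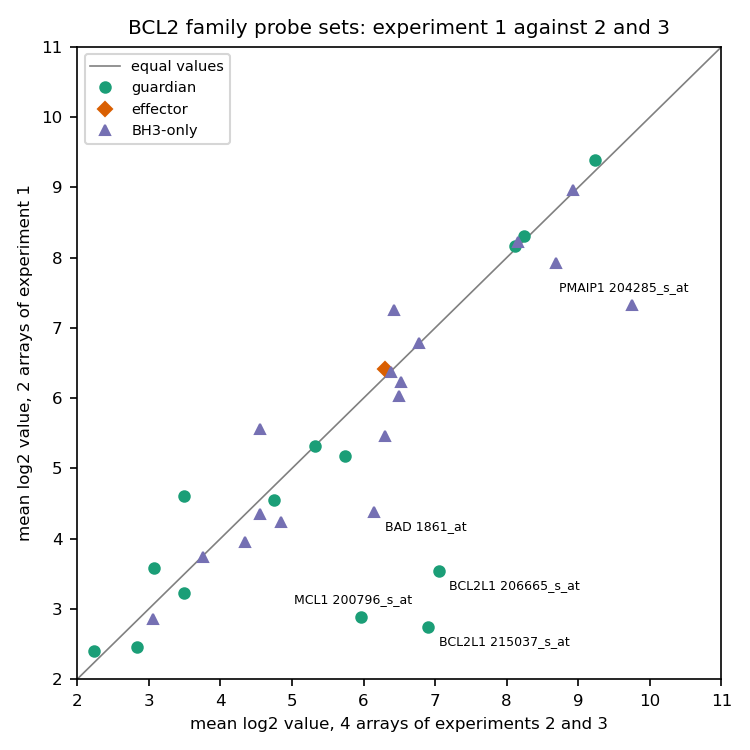
Each point is a family probe set, with its mean log2 value over the 4 arrays of experiments 2 and 3 on the horizontal axis and over the 2 arrays of experiment 1 on the vertical axis, marked by role. The 5 named points lie over 1 unit below the line of equal values, and most of the others lie close to it.

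Other genes of the apoptosis pathway, taken from 4 lists and each read by its brightest probe set, likewise gave no call. Over the brightest probe sets of all genes, 10.2% had an unadjusted p under 0.05, 46.8% were lower and the median difference was 0.01. Of 11 other BCL2-family genes measured, 0 passed and 0 had an unadjusted p under 0.05, with 9 lower, 2 higher and a median difference of -0.12. BNIP3L, a receptor for the removal of mitochondria, stood at -0.12, -0.004 and -0.70, and BCL2A1, a survival gene near the floor of the array, at 0.006, 0.05 and 0.18. Among 15 genes that regulate members, 0 passed and 1 had an unadjusted p under 0.05. Of these genes, 8 were lower and 7 higher, with a median difference of -0.007. FOXO3, a transcription factor known to drive BCL2L11, read 7.81 in control and 8.26 in miR-224 cells on average and was higher by 0.50, 0.78 and 0.08 (mean 0.45 ± 0.14 SE, limma adjusted p = 0.377, unadjusted 0.0118). DDIT3, the stress factor CHOP, differed by 0.18 ± 0.10, and FBXW7, a ubiquitin ligase component that acts on MCL1 protein, by -0.11 ± 0.10.

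Downstream of the family, 0 of 11 genes of the mitochondrial step passed and 0 had an unadjusted p under 0.05. Of these genes, 6 were lower and 5 higher, with a median difference of -0.02. The channel genes VDAC1 and VDAC3 differed by -0.11 ± 0.10 and 0.03 ± 0.10 (SE). Upstream, 0 of 9 death-receptor genes passed and 1 had an unadjusted p under 0.05. In this list 6 were lower and 3 higher, with a median difference of -0.03. TNFRSF10A, a receptor of the ligand TRAIL, was lower by -0.24, -0.23 and -0.77 in experiments 1, 2 and 3 (mean -0.41 ± 0.13 SE, limma adjusted p = 0.389, unadjusted 0.0144). The other TRAIL receptor gene on the list, TNFRSF10B, was close to level at -0.03 ± 0.10, and the adaptor FADD stood at -0.09 ± 0.10.

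The genes whose values ran closest to BCL2L11 1558143_a_at over the 6 arrays, each centred on its own mean, were LOC389199, LOC100190986 and TBC1D5. Their root mean square differences from it were 0.114, 0.122 and 0.127 log2 units. They were picked for this likeness, so their lower level in experiment 1 and their miR-224 minus control differences of -0.39, -0.56 and -0.56 follow from the choice.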

How the data were processed

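The authors deposited 1 log2 expression value per probe set and array. Per the submitters' processing notes these come from RMA and Partek. No version or setting is given in the sources used here, and the log base is unstated. RMA makes array distributions alike, so a shift shared by most genes cannot be seen. Array medians were 3.41 to 3.53. Probe sets were named through the platform annotation supplied with the series. Of 54675 probe sets, 62 controls were left out, and all 10 gene identifiers matched RefSeq.

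Differences were fitted by limma (version 3.58.1, R 4.3.3) through lmFit and eBayes, two-sided, with Benjamini-Hochberg adjustment over all probe sets, a threshold of 0.05, experiment as a block and 2 residual degrees of freedom. The series states the pairing. Deviations from the group means correlated across probe sets, which are not independent replicates, at 0.902, 0.734 and 0.783 for same-numbered arrays and at -0.777 to 0.474 otherwise. Such deviations cancel out over the 3 arrays of a group, which by itself lowers the correlations of arrays with unlike numbers. The negative ones all involve experiment 1, and those between experiments 2 and 3 were 0.474. A sign test over 3 pairs cannot go below an exact p of 0.25, so none is given. The fits were tested on simulated data.

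Every family probe set is named. From the other lists, genes that passed, or up to 3 with the smallest p and the same sign in every experiment, are named, as are the 3 genes nearest to the family probe set with the smallest p. The members and lists were chosen with earlier results of these data known. Of 51 listed pathway genes, 46 were measured, and the others were not analysed here. Figures were drawn with matplotlib 3.10.9.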

Additional observations from a re-analysis of the deposited data

How the results depend on the processing

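The family count stayed at 0 probe sets under every alternative run: no replicate block, each experiment left out, an intensity trend with robust variances, array weights, median centring, quantile normalization, only probe sets at or above the median level, a single value per gene, and an adjusted p under 0.1. Without the replicate block 0 probe sets were called over the array and 0 in the family, so the pairing changed no adjusted call, while the family count at an unadjusted p under 0.05 went from 7 to 0. The family median of 0.022 is the same by construction. That unadjusted count was 4 to 7 of 32 with an experiment left out, against 6.67% to 10.6% of all probe sets. With quantile normalization it was 10 of 32 (31.25%), against 9.93%. Over all probe sets the count of 0 became 28 with an intensity trend and robust variances, 2 at an adjusted p under 0.1, and 0 to 137 with an experiment left out, the 137 being without experiment 1. The cause was not tested. The 46 other apoptosis genes also gave 0 calls under the same settings of fit and scaling, which were applied to them after the data were seen. The family median was -0.028 to 0.028 with an experiment left out and -0.051 when probe sets were averaged by gene, where it runs over 10 genes in place of 32 probe sets.

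The block, the variance settings and a choice among probe sets cannot move a probe set's difference. Under the other 6 settings, 181 of 192 recomputed differences of single family probe sets kept their sign and 11 reversed, each from a mean difference of at most 0.091 in size. With an experiment left out, the values ran from -0.034 to 0.067 for BCL2L1 212312_at, from -0.030 to 0.12 for BCL2L1 215037_s_at, from -0.23 to 0.35 for MCL1 200796_s_at, from -0.030 to 0.13 for BID 227143_s_at, from -0.12 to 0.073 for BAD 232660_at, from -0.12 to 0.12 for BCL2L11 225606_at, from -0.18 to 0.44 for BCL2L11 222343_at and from -0.17 to 0.031 for PMAIP1 204286_s_at. With quantile normalization, BCL2L11 225606_at stood at 0.030. The cause of these reversals was not tested. Of the 32 probe sets, 5 lay below the median level of the array, where signal over background is least certain.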
